A study of Mus musculus with 15 samples.

Results

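Activation of CD4+ T cells that lack Irf5 was followed in 7 ATAC-seq libraries of IRF5-/- mouse cells, out of 15 libraries in the series. The 4 activated libraries were made after 72 h of activation in vitro (KO 72 h, numbered 1 to 4), and the 3 untreated libraries at 0 h (KO 0 h, numbered 1, 3 and 4). The other 8 libraries come from IRF5+/+ cells (wild type) and enter only where the knockout change is set against the wild-type change. The activating agent, the age of the mice and the knockout allele are not given in the sources used here. All 7 libraries carry the same genotype, so they compare KO 72 h with KO 0 h and not genotypes. Whether a change between them depends on the loss of Irf5 cannot be read from these 7 libraries alone. The labels do not say that libraries of a group came from separate mice or cultures, so p-values measure the spread between libraries, which may be technical. Activation and time in culture cannot be told apart in this design.

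In ATAC-seq the Tn5 transposase cuts and tags DNA where it is not wrapped in nucleosomes, so that fragments pile up over open promoters and enhancers. A resting CD4+ T cell keeps open the enhancers of a quiescent programme driven by factors such as FOXP1, BACH2, TCF1 and ETS1. Signalling through the T cell receptor induces AP-1, NFAT and NF-kB factors, which open enhancers of effector genes while parts of the resting landscape close. IRF5 is an interferon regulatory factor best known downstream of Toll-like receptors in myeloid cells and B cells.

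The peak lists of the 7 libraries held 357134 peaks, which were merged wherever they overlapped by at least 1 bp into 92799 regions. Each region got 1 height per library, the highest fragment pileup of its peaks per M fragments, and 0 where no peak was called. A height of 0 means that no peak passed the caller's threshold, not that the site is closed. The 56265 regions with a peak in at least 3 libraries were tested with limma on log2(height + 0.5). On that scale a region was called gained or lost at a Benjamini-Hochberg adjusted p under 0.05 and a log2 change, KO 72 h over KO 0 h, of at least 1. A change from or to 0 depends on the added 0.5, since a height under the threshold is not known.

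Depth was similar between the groups, with 21.4 M to 24.8 M fragments after duplicate removal in the KO 72 h libraries and 20.5 M to 28.3 M in the KO 0 h libraries. Duplicates made up 15.3% ± 0.96 of fragments at KO 72 h and 22.3% ± 3.21 at KO 0 h (SD, n = 4 and 3, two-sided exact permutation p = 0.0286), and their part in the results was not tested. The labels name no batch. KO 0 h library 3 stood apart in its group, with 29994 peaks against 45589 and 42357 in libraries 1 and 4, and with the lowest heights. The main counts are also given without it.

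The label was checked on peaks within 1 kb of marker genes. Of 14 T cell markers, 13 had a peak in every KO 72 h library and 14 in every KO 0 h library. At Cd4 the height was 2.80, 3.03, 3.37 and 2.95 per M in the KO 72 h libraries, against 8.08, 4.13 and 9.06 in the KO 0 h libraries. Of 34 markers of other cells, 15 also had a peak in all 7 libraries, among them Cd79a, Ebf1, Spi1 and Zbtb46, and 9 were at 0 in all 7, among them Ms4a1, Lyz2, Ncr1 and Klrb1c. The targeted gene itself kept peaks in both groups: none of the 4 tested regions at Irf5 was called, with limma adjusted p between 0.204 and 0.545. The region over its start (chr6:29526417-29527551, mm10) measured 1.38, 1.05, 1.07 and 1.03 per M in the KO 72 h libraries and 1.69, 0.918 and 2.53 in the KO 0 h libraries, so the groups overlapped. Accessibility does not show which part of the gene was deleted, so this checks no label.

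As deposited, the lists of activated knockout cells held more, narrower and lower peaks, with a smaller share near genes. The KO 72 h libraries held 59799 ± 2865 peaks and the KO 0 h libraries 39313 ± 8231 (SD, n = 4 and 3), a ratio of 1.52. Peaks covered 31.5 ± 2.08 Mb at KO 72 h and 22.6 ± 5.80 Mb at KO 0 h. Their median width was 420 ± 28.9 bp at KO 72 h and 481 ± 37.6 bp at KO 0 h, and their median height 1.04 ± 0.029 against 1.58 ± 0.30 per M. Peaks near a gene boundary, meaning 1 kb or less from either end of a protein-coding gene, made up 23.1% ± 0.90 at KO 72 h and 29.7% ± 4.62 at KO 0 h. For each of these 5 measures the groups did not overlap, with a two-sided exact permutation p of 0.0286, which is the smallest that 35 arrangements allow and is also 0.0286 after adjustment over the 5. In absolute number, peaks near boundaries were also more at KO 72 h, 13815 ± 184 against 11411 ± 823 at KO 0 h. Without KO 0 h library 3 the direction of all 5 held, but 15 arrangements cannot give a p below 0.0667. When each library was held to its 29994 strongest peaks, the width difference turned to 69.1 bp (KO 72 h minus KO 0 h, exact permutation p = 0.343), and the height (−0.448 per M, exact p = 0.314), the bases covered (2.12 Mb, exact p = 0.286) and the boundary share (−0.572 percentage points, exact p = 0.257) no longer separated the groups. With only peaks of −log10 q of at least 5 the width difference was −27.8 bp (exact p = 0.486).

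**Figure D1:**
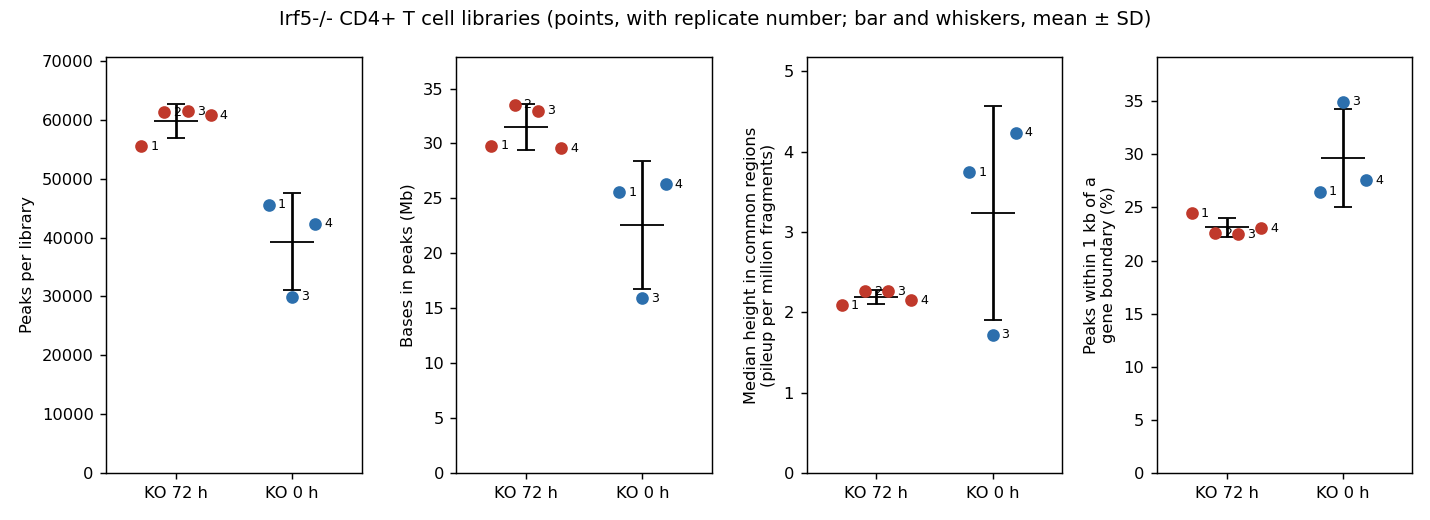
Peaks, bases in peaks, median height in the 21971 regions with a peak in all 7 libraries, and percentage of peaks near gene boundaries, 1 point per library with its replicate number, and bars for mean ± SD. The 4 KO 72 h libraries lie close together, while KO 0 h library 3 falls below libraries 1 and 4 in peaks and height and above them in the boundary share.

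In the tested regions, 14190 were gained and 6158 lost at KO 72 h, which is 25.2% and 10.9% of 56265. The median change of the gained regions was 1.51 and that of the lost regions −1.52, beside 0.20 over all tested regions. Of the gained regions, 11023 (77.7%) had no peak in any KO 0 h library. Of the lost regions, 1968 (32.0%) had no peak in any KO 72 h library, and 2473 (40.2%) had one in all 4. These shares cannot be set against each other, because a region absent from the other group was tested with a peak in 3 of 4 KO 72 h libraries but needed one in all 3 KO 0 h libraries. In bulk cells, fewer cells with an open site and less opening per cell cannot be told apart. Of 92799 regions, 10929 (11.8%) had a peak in every KO 72 h library and in no KO 0 h library, and 1980 (2.13%) the reverse. Heights of the groups did not overlap in 43.2% of tested regions.

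In unscaled heights, the balance of gains and losses changed when KO 0 h library 3 was left out. Without it, 12667 regions were gained and 13930 lost of 67007 tested, so the gained share of all called regions was 47.6% against 69.7% with all libraries. The regions called with all libraries were largely called again: 99.7% of the lost and 89.1% of the gained. When heights were scaled to an equal median in the common regions, the split went the other way, to 19315 gained and 4136 lost (82.4% gained), and the median of all tested regions moved from 0.20 to 0.52. Scaled in that way and without library 3, a choice made after seeing the data, 14948 were gained and 5767 lost (72.2% gained). With the 29994 strongest peaks of each library, 6484 were gained and 7215 lost (47.3% gained). That regions moved in each direction held in all of these, but whether more opened or more closed did not.

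In the heights as deposited, regions with a peak in all 7 libraries were mainly lower at KO 72 h. Of the 21971 regions with a peak in all 7 libraries, 77.3% had a lower mean at KO 72 h, and the median change was −0.43. There 497 (2.26%) were gained and 2473 (11.3%) lost. Without KO 0 h library 3 the counts were 655 and 7172, without library 1 589 and 1297, and without library 4 738 and 1290. Scaled by common regions, which takes out a shift shared by all of them, the order turned to 1160 gained and 816 lost with a median of −0.04, and to 1939 and 1229 when library 3 was also left out. Their median height was 2.09, 2.26, 2.26 and 2.15 per M in the KO 72 h libraries, against 3.74, 1.72 and 4.24 in the KO 0 h libraries. The groups overlapped, since KO 0 h library 3 lay below all 4 activated libraries (exact permutation p = 0.229). Across all 7, heights ranked alike within a group (Spearman's rho between 0.943 and 0.959 at KO 72 h and between 0.971 and 0.981 at KO 0 h) and less so between groups (0.712 to 0.750), so the order of regions separated the groups although library 3 had low heights. These correlations are across regions, which are not independent replicates.

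**Figure D2:**
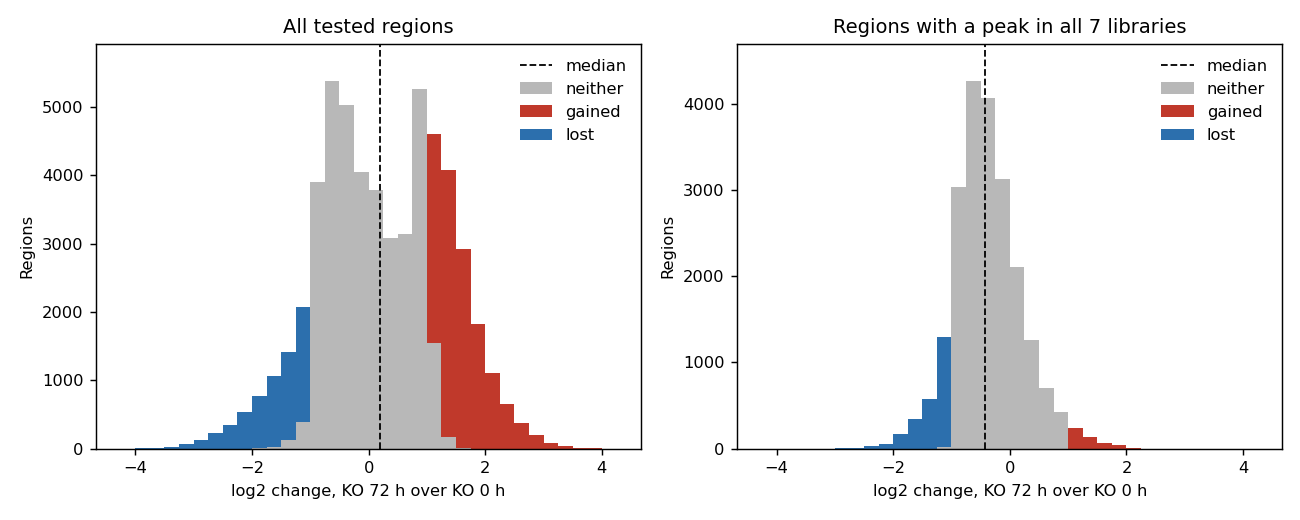
Number of regions by log2 change, KO 72 h over KO 0 h, for all 56265 tested regions (left) and the 21971 with a peak in all 7 libraries (right), coloured by call, with the median dashed. The left distribution has a second mode near 1; the right has its median at −0.43 and few gains.

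With all libraries, changes were less frequent near gene boundaries than away from them. Of tested regions within 1 kb of a boundary, 11.8% were gained and 6.27% lost. Inside gene bodies 28.2% were gained and 13.2% lost, and between genes, up to 100 kb from one, 29.2% and 11.3%. In gene deserts, more than 100 kb from any protein-coding gene, 39.5% of 3083 regions were gained and 11.7% lost. For losses this order held with equal numbers of peaks, at 9.78% near boundaries, 26.6% in bodies, 23.6% between genes and 25.1% in deserts. Scaled to common regions, these shares were 1.97%, 9.57%, 8.28% and 8.66%. The order turned without KO 0 h library 3. There 27.3% of boundary regions were lost, against 20.4% in gene bodies, 17.4% between genes and 16.7% in deserts. Gains stayed less frequent at boundaries without it, at 9.44%, against 20.6% in bodies, 21.4% between genes and 28.3% in deserts. By chromosome, the gained share ran from 17.4% on chromosome 11 to 30.5% on chromosome 3, and the lost share from 5.94% on the X chromosome to 15.04% on chromosome 15, leaving out the Y chromosome with 19 regions. Leaving out KO 0 h library 3, these ranges were 13.02% to 22.7% gained and 17.05% to 27.7% lost. Of 15492 genes with a tested region within 100 kb, 5185 had gained regions only, 1550 lost only, 1574 both and 7183 neither. Without that library the numbers were 3764, 3981, 2500 and 5793 of 16038 genes.

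Where a called region covered a whole gene start, promoter sequence could be set beside the change. RefSeq promoter windows (250 bases before to 50 after a start, GRCm38.p6, the assembly behind mm10) lay wholly within a gained region at 528 genes and within a lost region at 554, leaving out genes with Gm or Rik names. The 2 with the largest change in each direction are shown, chosen after their values were seen, up to 30 bases past the start. Capitals mark matches, on either strand, to AP-1 (TGANTCA), RUNX (TGTGGT), ETS (CCGGAAGT), TCF/LEF (CTTTGA), the IRF element, E-box (CACGTG) or NFAT (GGAAAAT) letters. Klrk1 and Mctp1 were gained and Cbarp and Tgif1 lost.
Klrk1, chr6:129623835-129624114, minus strand: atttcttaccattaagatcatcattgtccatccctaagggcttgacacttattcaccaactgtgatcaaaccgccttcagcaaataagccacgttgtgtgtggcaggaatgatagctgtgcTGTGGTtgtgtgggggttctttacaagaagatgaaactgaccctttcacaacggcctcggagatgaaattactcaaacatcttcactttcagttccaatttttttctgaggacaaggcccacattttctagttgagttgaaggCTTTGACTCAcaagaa
Mctp1, chr13:76579347-76579626, plus strand: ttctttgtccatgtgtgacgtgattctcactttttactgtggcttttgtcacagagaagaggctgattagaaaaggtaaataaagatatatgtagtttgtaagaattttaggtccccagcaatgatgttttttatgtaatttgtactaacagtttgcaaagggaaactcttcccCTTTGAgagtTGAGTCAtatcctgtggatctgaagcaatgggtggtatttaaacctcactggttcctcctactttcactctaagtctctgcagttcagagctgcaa
Cbarp, chr10:80137358-80137637, minus strand: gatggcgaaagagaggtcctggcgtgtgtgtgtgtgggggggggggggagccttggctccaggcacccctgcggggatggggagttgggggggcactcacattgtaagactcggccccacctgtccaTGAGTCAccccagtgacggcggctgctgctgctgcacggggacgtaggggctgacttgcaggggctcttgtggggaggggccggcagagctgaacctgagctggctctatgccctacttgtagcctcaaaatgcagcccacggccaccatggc
Tgif1, chr17:70853503-70853782, minus strand: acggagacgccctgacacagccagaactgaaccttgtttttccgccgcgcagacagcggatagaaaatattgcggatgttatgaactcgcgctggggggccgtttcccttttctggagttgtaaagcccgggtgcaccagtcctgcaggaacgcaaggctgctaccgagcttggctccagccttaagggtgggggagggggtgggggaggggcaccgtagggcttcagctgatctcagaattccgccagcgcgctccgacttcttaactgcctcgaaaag

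The AP-1 letters overlap TCF/LEF letters in the gained Klrk1 promoter and lie close to them in that of Mctp1, and Klrk1 also holds RUNX letters. Cbarp, although lost, holds AP-1 letters too, and Tgif1 holds none of the 7 motifs. Over all 21262 promoter windows AP-1 letters occur in 6.99%, against 4.33% of the 11953 in a tested region, 6.81% of the 896 overlapping a gained region and 4.24% of the 707 overlapping a lost one. ETS letters occur in 5.15% of all windows, 8.57% in tested regions, 1.004% in gained and 6.65% in lost ones. A match describes these letters only and says nothing of a factor bound there.

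At the start of Klrk1, which encodes the activating receptor NKG2D of natural killer and CD8 T cells, heights were 3.78, 5.09, 5.12 and 5.01 per M in the KO 72 h libraries, against 0, 0 and 0 in the KO 0 h libraries (log2 change 3.38 ± 0.17 SE, limma adjusted p = 5.28e-05). The Mctp1 start, at a gene for a calcium-binding membrane protein, measured 3.07, 3.75, 4.696 and 4.96 at KO 72 h and 0.777, 0 and 0 at KO 0 h (2.74 ± 0.37, limma adjusted p = 5.25e-04). At both starts every activated library was above every untreated one, as the groups were apart in 96.9% of all called regions. That separation thus follows largely from the choice by size of change. At Cbarp the KO 72 h libraries had no peak, against 3.04, 1.301 and 3.56 at KO 0 h (−2.56 ± 0.28). Tgif1, a homeobox repressor that binds SMAD proteins, had a peak of 1.98 in KO 72 h library 2 and none in the other KO 72 h libraries, against 4.66, 2.295 and 5.02 at KO 0 h (−2.53 ± 0.62, limma adjusted p = 0.0131). A further lost start was that of Cnr2, the cannabinoid receptor of immune cells, with 0.445, 0.484, 0.512 and 0 at KO 72 h and 4.77, 2.64 and 4.53 at KO 0 h (−2.40 ± 0.32).

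The largest gains were peaks that appeared away from gene starts. A region in the body of Gstcd (chr3:133078186-133078871, mm10) measured 8.05, 7.59, 9.31 and 8.51 per M in the KO 72 h libraries and 0, 0 and 0 in the KO 0 h libraries (log2 change 4.14 ± 0.15 SE, limma adjusted p = 5.28e-05). One 46713 bp from Map3k7cl (chr16:87642049-87642638) measured 6.27, 6.42, 9.05 and 7.95 at KO 72 h and again had no peak at KO 0 h (3.97 ± 0.18). Next came regions at Sfi1, at Rgs21, at Tub and at Krtap28-13, with changes from 3.79 to 3.94. These 6 were picked among gained regions whose groups did not overlap, so their separation follows from that rule. Only Krtap28-13 had any KO 0 h peak (0.706 in library 1). The nearest gene is given as a position and need not be the gene a region acts on.

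The largest losses had no peak in any activated library. Near Bhmt, the betaine-homocysteine methyltransferase gene (chr13:93593357-93593937), KO 72 h libraries had none, against 9.602, 3.79 and 11.1 per M in the KO 0 h libraries (log2 change −3.99 ± 0.34 SE, limma adjusted p = 6.34e-05). At Dhx40, Mgst2, Plcxd2 and Fam207a and at a second site in Sfi1 the changes ran from −3.94 to −3.81, again with every KO 72 h library at 0. Sfi1 lies in a stretch with near-identical copies, and its reads, gained or lost, cannot be assigned to 1 copy with certainty. In each of these 6 regions KO 0 h library 3 had the lowest untreated height, between 3.79 and 4.82.

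Among regions with a peak in all 7 libraries, where no value is 0, losses were the larger. A region 27154 bp from S1pr1, the receptor that guides T cells out of lymph nodes, measured 0.979, 1.66, 1.02 and 1.45 in the KO 72 h libraries and 14.7, 7.42 and 17.1 in the KO 0 h libraries (−2.87 ± 0.31 SE, limma adjusted p = 1.77e-04). In Tox, a gene for an HMG-box factor of T cell development, a region measured 1.2015, 1.37, 1.07 and 1.26 at KO 72 h and 14.97, 6.504 and 17.8 at KO 0 h (−2.87 ± 0.33). Pde2a and Itpr2 had larger changes, at −3.02 and −2.95. Even in library 3, the lowest of its group, each of these 4 regions was at least 5.16 per M, and no activated library passed 1.66. They were picked by size of change, which favours regions whose groups do not overlap.

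The 5 largest gains among regions open throughout were at Nfia, Prokr2, Vat1l, Etv6 and Ripk2, from 2.69 to 2.35. Within Etv6, an ETS-family repressor gene, the height was 5.65, 4.88, 5.25 and 5.71 in the KO 72 h libraries and 0.5295, 0.383 and 0.877 in the KO 0 h libraries (2.44 ± 0.20 SE, limma adjusted p = 5.43e-05). The region 50828 bp from Ripk2, a kinase gene of the NOD receptor pathway, measured 6.23, 6.42, 7.598 and 6.503 at KO 72 h and 1.24, 0.459 and 1.17 at KO 0 h (2.35 ± 0.24). Near gene boundaries the largest losses included Camkk2, a calcium-dependent kinase (−3.43), Actb, beta-actin (−3.13), and Nfkbia, the NF-kB inhibitor IkB-alpha (−3.05). The Nfkbia region lies 56 bp beyond the gene, 3294 bp from its listed start. It measured 0, 1.86, 0 and 0 at KO 72 h and 6.81, 3.33 and 7.55 at KO 0 h (limma adjusted p = 0.00471). The 33 regions named by size of change kept their call under the 21 alternative settings, except that the lost Sfi1 region was not tested under 2 of them, the stricter q and the equal number of peaks.

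**Figure D3:**
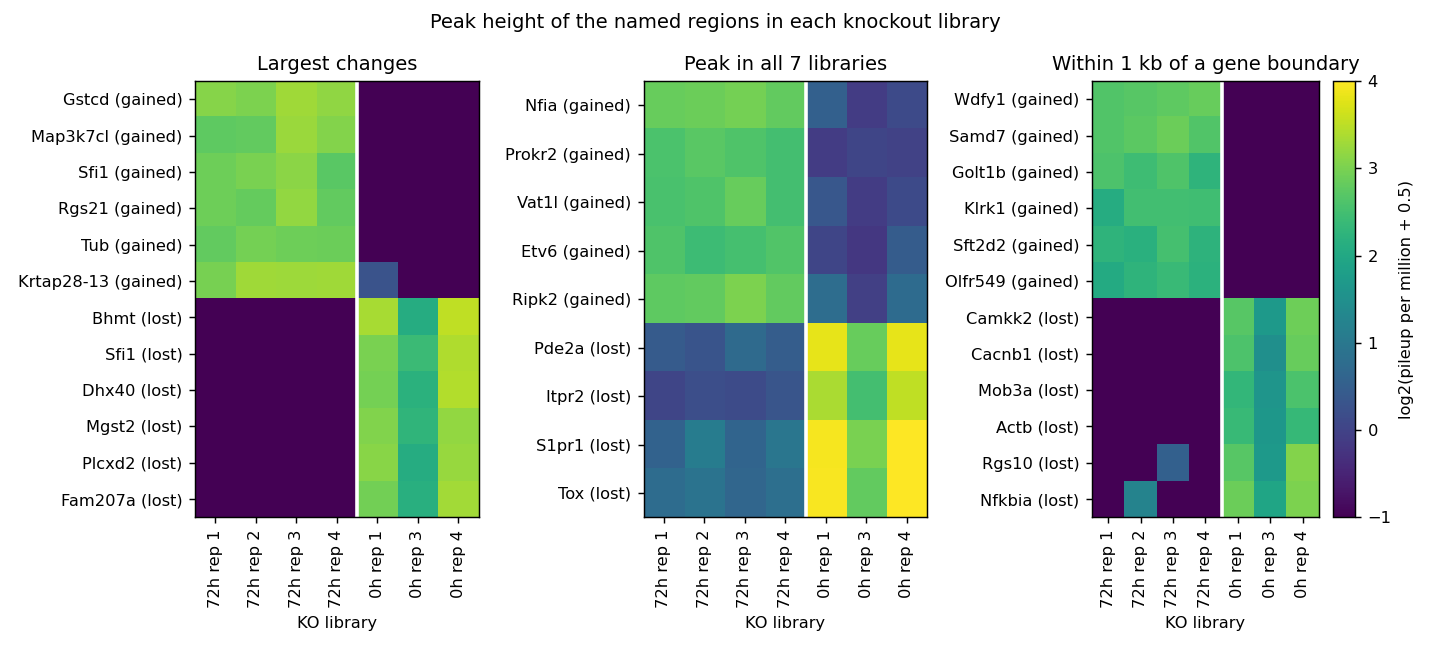
Height of the 33 named regions in each library, as log2(pileup per M + 0.5), with the 4 KO 72 h libraries left of the 3 KO 0 h libraries. Dark cells are libraries with no peak; KO 0 h library 3 is dimmer than libraries 1 and 4 at every lost region, yet above all activated libraries.

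Changed regions gathered at some genes. Dlg2, a scaffold protein gene best known at synapses, had 15 gained and 0 lost regions of 20 tested, and Kif16b, a kinesin gene, 14 gained and 0 lost of 18. Jazf1 (14 gained, 1 lost of 19), Itpr1, an IP3 receptor gene (14 gained, 5 lost of 39), Mdfic (13 gained, 1 lost of 25) and Slc9a9 (13 gained, 6 lost of 35) followed. These are long genes with many regions. Without KO 0 h library 3, Dlg2 had 15 gained and 0 lost of 28, and Kif16b 14 and 0 of 22. Jazf1 then had 12 gained and 3 lost of 22, and Itpr1 12 and 7 of 46. Mdfic had 9 and 2 of 28, and Slc9a9 12 and 9 of 40. Over all regions tested then, 18.9% were gained and 20.8% lost. One Dlg2 region (chr7:92420381-92420970) measured 2.58, 3.23, 3.46 and 2.81 in the KO 72 h libraries and had no KO 0 h peak (2.81 ± 0.17 SE). At Kif16b a region measured 2.71, 2.62, 3.07 and 2.43 at KO 72 h, again with no KO 0 h peak (2.68 ± 0.16).

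The genes with the most lost regions included regulators of the resting state. Foxp1, a forkhead factor that keeps T cells quiescent, had 4 gained and 18 lost regions of 64 tested. Prkcq, which encodes the receptor-proximal kinase PKC-theta, had 3 gained and 17 lost of 34, and Bach2, a repressor that restrains effector differentiation, 10 gained and 16 lost of 48. Btg1, an antiproliferative gene of resting lymphocytes, had 1 gained and 14 lost of 30. Sgms1 (7 gained, 16 lost of 36) and Akap13 (7 gained, 16 lost of 52) made up the 6. Without KO 0 h library 3 the lost counts were 27 of 76 at Foxp1, 19 of 40 at Prkcq, 22 of 59 at Bach2 and 19 of 33 at Btg1. The lost share over all regions also rose, from 10.9% to 20.8%.

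Single regions of these genes went both ways. In Foxp1, 1 region measured 0.579, 0.484, 0.555 and 0 in the KO 72 h libraries and 6.35, 2.75 and 7.45 in the KO 0 h libraries (−2.70 ± 0.40 SE, limma adjusted p = 9.38e-04). Another, chr6:99405969-99406613, measured 4.27, 2.74, 4.14 and 3.09 at KO 72 h and had no KO 0 h peak (3.002 ± 0.20). Gain and loss thus lay inside the same gene. In Bach2, a region open throughout measured 1.38, 1.78, 1.195 and 1.12 at KO 72 h and 9.28, 4.94 and 10.4 at KO 0 h (−2.17 ± 0.28), and 1 at chr4:32330732-32331731 measured 1.87, 1.78, 1.75 and 2.29 at KO 72 h with no KO 0 h peak (2.27 ± 0.16). The region 71022 bp from Btg1 had no KO 72 h peak, against 7.202, 4.21 and 7.403 at KO 0 h (−3.72 ± 0.22).

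**Figure D4:**
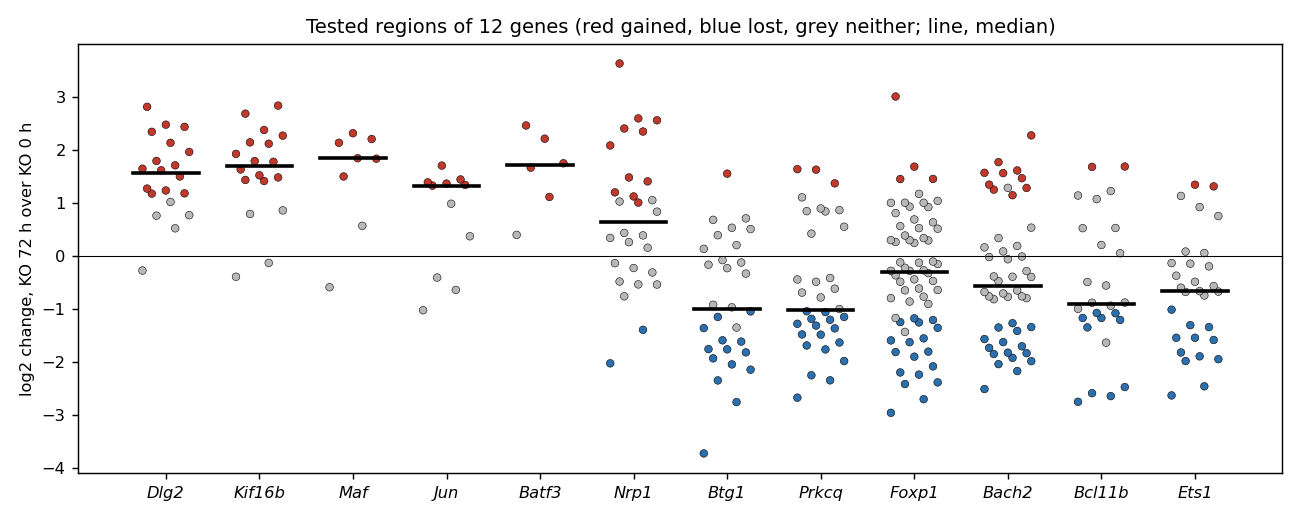
Log2 change, KO 72 h over KO 0 h, of every tested region within 100 kb of 12 genes, with the median as a line; the genes were picked after their values were seen. With all libraries, Dlg2, Kif16b, Maf, Jun and Batf3 have no lost region; Foxp1, Bach2 and Nrp1 have both gained and lost ones.

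Lists of genes were described by the calls of their regions, beside 25.2% gained and 10.9% lost over all tested regions. For counts without KO 0 h library 3, these background shares are 18.9% gained and 20.8% lost. In all, 25 lists held 398 genes, of which 377 had a tested region. In 16 lists more regions were gained than lost and in 9 the reverse. That order held without KO 0 h library 3, with scaling to common regions and with an equal number of peaks in only 5 lists. T cell identity, naive and quiescent state and ribosome biogenesis had more lost regions in all 4 counts, and Th2 and B cell markers more gained ones. The order in the other 20 lists changed with at least 1 of those choices, so their counts below describe the libraries as deposited.

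With all libraries, naive state and identity genes had the largest lost shares among the lists. Of 350 regions at 20 naive and quiescent state genes, 50 were gained and 127 (36.3%) lost, with a median change of −0.65. Of 225 regions at 20 T cell identity genes, 30 were gained and 70 (31.1%) lost, with a median of −0.59. When KO 0 h library 3 was left out, the lost shares were 45.9% and 42.2%, beside 20.8% over all regions. Those of ribosome biogenesis (42.5%) and TGF-beta receptors and SMADs (42.4%) then lay near them. Ets1, a lineage factor, had 2 gained and 12 lost of 30, Bcl11b, which holds T cell commitment, 2 gained and 10 lost of 26, and 4 gained and 8 lost of 18 at Cd28, which encodes a costimulatory receptor. A Bcl11b region (chr12:107996255-107996641) had no KO 72 h peak, against 4.06, 1.68 and 3.31 per M at KO 0 h (−2.75 ± 0.26 SE). At Cd28, 1 region measured 2.09, 1.98, 2.18 and 1.45 at KO 72 h with no KO 0 h peak (2.27 ± 0.18). Another had none at KO 72 h, against 4.31, 1.45 and 4.24 at KO 0 h (−2.83 ± 0.33).

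Receptor-induced genes and their signalling factors were split. At 173 regions of T cell receptor induced genes, 30 were gained and 33 lost, and at 91 of the NF-kB pathway 14 were gained and 19 lost. The lost counts without KO 0 h library 3 were 58 of 205 and 37 of 107, with 27 and 13 gained. Scaled to common regions, 43 were gained and 21 lost of 173, and 21 gained and 12 lost of 91. AP-1 and BATF factor genes had 14 gained and 5 lost of 66, 11 of the 14 at Jun (6 gained, 0 lost of 11) and Batf3 (5 gained, 0 lost of 6). Without KO 0 h library 3 the AP-1 list had 10 gained and 23 lost of 84, and Jun 4 gained and 1 lost of 13. A Batf3 region (chr1:191114925-191115470) measured 2.58, 2.42, 2.52 and 1.59 in the KO 72 h libraries and had no KO 0 h peak (2.46 ± 0.20 SE). Tnfaip3, the NF-kB inhibitor A20, had 1 gained and 7 lost of 14. A region 46485 bp from it measured 3.25, 4.48, 4.06 and 3.37 at KO 72 h and 22.9, 12.1 and 28.2 at KO 0 h (−2.26 ± 0.31, limma adjusted p = 5.59e-04). Il2ra, the high-affinity IL-2 receptor chain, had 4 gained and 4 lost of 15.

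Of the helper cell lists, Th2 gained the largest share. Its 66 regions held 27 gained (40.9%) and 4 lost ones, with a median of 0.79; without KO 0 h library 3 the counts were 25 gained and 8 lost of 75. Maf, a factor of IL-4 and IL-10 expression, had 6 gained and 0 lost of 8. Rad50, whose body holds the Th2 locus control region, had 3 gained and 0 lost of 5 (3 and 1 without that library). Il4ra, an IL-4 receptor chain, had 3 gained and 0 lost of 11, close to the gained background, and 2 and 2 of 13 without it. In Rad50 a region measured 2.09, 1.74, 2.82 and 2.199 at KO 72 h with no KO 0 h peak (2.42 ± 0.19 SE, limma adjusted p = 5.28e-05). In Il10, a cytokine gene, neighbouring regions went apart, with 3.34, 3.07, 3.59 and 3.23 at KO 72 h and 0.918, 0.574 and 0 at KO 0 h in one (2.06 ± 0.34), and no KO 72 h peak against 1.27, 0.536 and 1.51 at KO 0 h in the other (−1.63 ± 0.24).

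Th1 and cytotoxic genes had 32 gained and 30 lost of 141, and 28 and 50 of 160 without KO 0 h library 3. Ifngr1, the interferon-gamma receptor gene, had 0 gained and 9 lost of 11, while Ifng itself had 6 gained and 3 lost of 21 (4 and 4 of 22 without that library). The region 13060 bp from Ifngr1 measured 0.4895, 0.686, 0.598 and 0.702 in the KO 72 h libraries and 6.25, 3.099 and 7.06 in the KO 0 h libraries (−2.35 ± 0.27 SE, limma adjusted p = 2.57e-04). Th17 genes had 25 gained and 10 lost of 79 (23 and 24 of 96 without KO 0 h library 3), among them Il23r and Ahr with 3 gained and 0 lost each. Without that library Il23r had 3 gained and 1 lost of 9, and Ahr 2 gained and 3 lost of 9. Regulatory T cell genes had 25 gained and 17 lost of 118, and 25 and 35 of 136 without it. In Nrp1, neuropilin-1, 11 of 28 were gained and 2 lost (11 and 7 of 35 without it), and its strongest region measured 5.79, 5.05, 6.19 and 5.71 at KO 72 h with no KO 0 h peak (3.62 ± 0.15). Ctla4, an inhibitory receptor gene, had 4 gained and 6 lost of 16. Follicular helper and inhibitory receptor genes had 25 gained and 23 lost of 103 (19 and 37 of 116 without it), with Tox at 5 gained and 12 lost of 30. Pdcd1, the PD-1 gene, had 4 gained and 1 lost of 9, and 2 and 2 of 10 without it. The Pdcd1 region 735 bp from the gene's boundary measured 3.204, 3.31, 2.73 and 2.95 at KO 72 h and had no KO 0 h peak (2.82 ± 0.16).

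In the heights as deposited, cytokine signalling genes had more lost than gained regions. JAK-STAT and SOCS genes had 18 gained and 23 lost of 98, and TGF-beta receptors and SMADs 20 gained and 28 lost of 112. These became, without KO 0 h library 3, 15 and 38 of 109, and 19 and 59 of 139. Scaled to common regions the order turned, to 21 gained and 16 lost of 98, and 24 gained and 19 lost of 112. Stat5b, a transducer of IL-2 signals, had 1 gained and 8 lost of 11, and a region in its body had no KO 72 h peak, against 7.48, 3.29 and 7.84 at KO 0 h (−3.66 ± 0.29 SE). Cish, a SOCS-family inhibitor of that pathway, had 3 gained and 0 lost of 6, and the region 170 bp from its boundary measured 3.604, 3.47, 4.098 and 4.397 at KO 72 h with no KO 0 h peak (3.13 ± 0.16). The 7 other IRF genes with tested regions had 11 gained and 9 lost of 50, led by Irf2 (7 gained, 1 lost of 18). Both orders turned without KO 0 h library 3, to 8 gained and 18 lost of 59 over these genes and 4 gained and 7 lost of 20 at Irf2. Irf4, an immediate target of antigen signals, had 1 gained and 2 lost of 9. Interferon-stimulated genes had 7 gained and 3 lost of 43 (6 and 5 of 48 without that library).

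Metabolic and growth lists stood below the gained background with all libraries, as did most lists. Only Th2, Th17 and B cell markers stood above it. Glycolysis and Hif1a genes had 17 gained and 5 lost of 86 (13 and 19 of 106 without KO 0 h library 3). In Hk2, hexokinase 2, 5 of 9 were gained and none lost, and 1 region measured 2.23, 2.34, 2.43 and 2.34 in the KO 72 h libraries with no KO 0 h peak (2.50 ± 0.15 SE, limma adjusted p = 5.28e-05). Pfkp, phosphofructokinase, had 4 gained and 0 lost of 11 (3 and 1 of 13 without it). Glutamine and amino acid metabolism had 13 gained and 8 lost of 82, and 10 and 21 of 94 without it. The mTORC1 pathway had 7 gained and 14 lost of 68 (7 and 30 of 79 without it), but 13 gained and 10 lost when scaled to common regions. Sesn1, an inhibitor of that pathway, had 0 gained and 4 lost of 6. Ribosome biogenesis genes had 1 gained and 4 lost of 32, a lost share of 12.5%. Without KO 0 h library 3 they had 1 gained and 17 lost of 40 (42.5%), beside 20.8% lost over all regions. Cell cycle genes had 25 gained and 12 lost of 113 (22 and 30 of 129 without it), led by Cdk6 (6 gained, 2 lost of 14) and Ccnd2, cyclin D2 (4 gained, 0 lost of 14), which had 4 and 4 and 4 and 1 without it. Apoptosis and survival genes had 15 gained and 12 lost of 94 (12 and 23 of 107 without it), with the death gene Bcl2l11 at 0 gained and 4 lost of 6. Adhesion and migration genes had 31 gained and 23 lost of 133 (28 and 38 of 147 without it). The integrin genes Itgav (7 gained, 0 lost of 12) and Itgb1 (6 gained, 0 lost of 11) had no lost region, with that library or without it. An Itgb1 region 30345 bp away measured 4.76, 4.28, 5.72 and 4.21 at KO 72 h with no KO 0 h peak (3.38 ± 0.17).

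**Figure D5:**
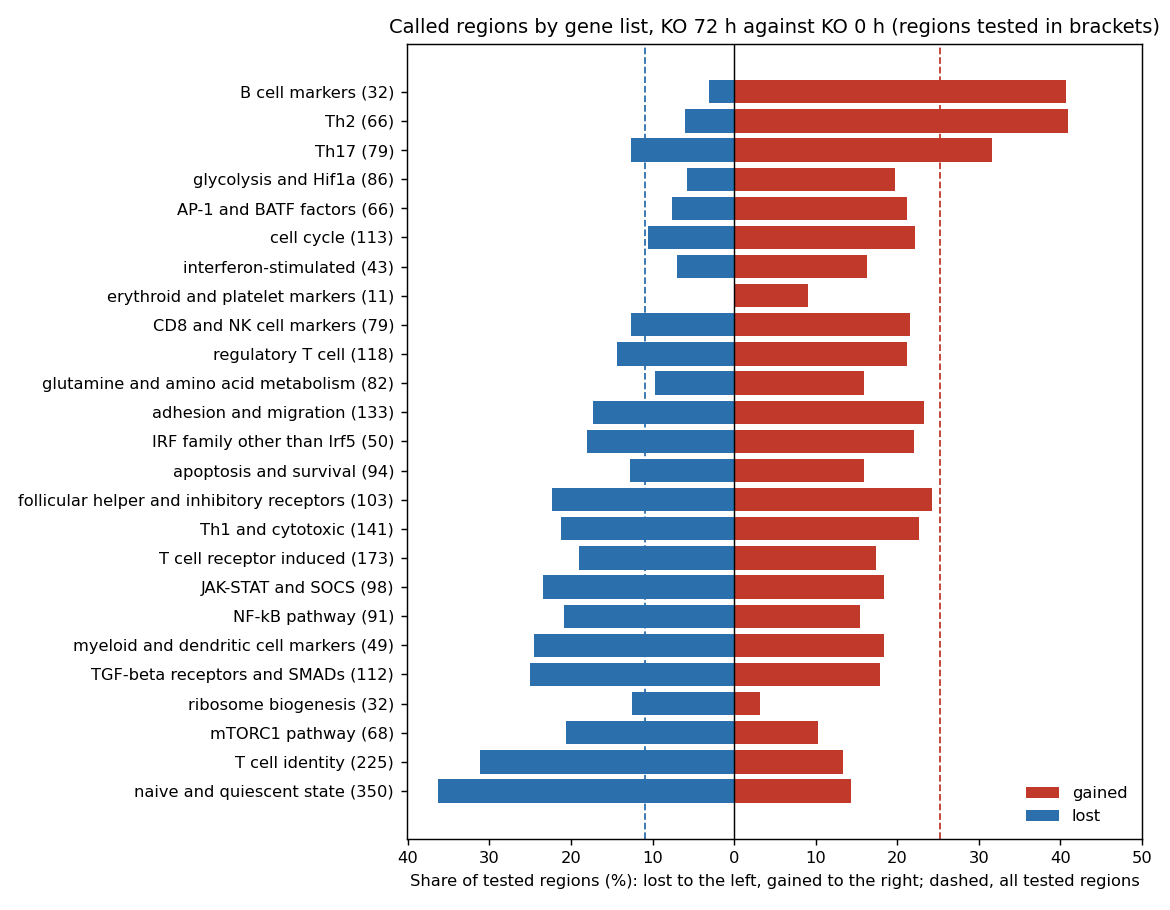
Share of tested regions gained (right) and lost (left) in each of 25 gene lists, with the number of regions tested in brackets and the shares over all tested regions dashed (25.2% and 10.9%). Naive and quiescent state and T cell identity reach furthest to the lost side, Th2 and B cell markers to the gained side.

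Genes that mark other cells were measured the same way. B cell marker genes had 13 gained and 1 lost of 32 regions (10 gained and 3 lost of 49 without KO 0 h library 3), with 7 of the 13 near Bank1, a B cell adaptor gene, and 2 each near the B lineage factors Pax5 and Ebf1. The largest, 53478 bp from Bank1, measured 4.63, 5.09, 5.42 and 5.57 in the KO 72 h libraries with no KO 0 h peak (3.50 ± 0.15 SE). Summed height within 1 kb of 10 B cell markers was 13.4 to 17.0 per M at KO 72 h and 5.70 to 13.8 at KO 0 h, with 6 and 5 of the 10 having a peak in every library of the group, and with Ms4a1 and Cd79b at 0 throughout. CD8 and NK cell markers had 17 gained and 10 lost of 79 (15 and 20 of 91 without it). Summed over 8 of them, height was 8.01 to 8.84 at KO 72 h and 3.44 to 9.30 at KO 0 h. Klrk1 was the tallest of them at KO 72 h. Cd8a was 0.578 per M in KO 72 h library 1 and 0 in the other 3, against 0.953, 0 and 0.828 at KO 0 h. Cd8b1 had a peak in every library, with 0.668, 0.646, 1.02 and 0.748 at KO 72 h and 3.39, 1.42 and 3.46 at KO 0 h. Klrd1 and Klrc1 also had a peak in every library, and Klrb1c and Ncr1 in none. Myeloid markers summed to 9.96 to 10.6 at KO 72 h and 5.43 to 13.1 at KO 0 h, and erythroid markers to 5.97 to 6.68 and 4.17 to 11.4. The part of other cells in the gained regions was not tested.

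The wild-type libraries moved much as the knockout did. Of regions gained in the knockout, 99.1% had a higher mean at WT 72 h than at WT 0 h, against 48.2% of all tested regions, and of those lost 99.8% had a lower one, against 51.8%. A wild-type change of at least 1 in the same direction was found at 81.1% of gained and 94.6% of lost regions, against 26.4% and 19.3% of all tested regions. An interaction term over all 15 libraries tested the difference between the genotypes' changes at each of the 56265 regions. These regions were chosen by peaks in at least 3 knockout libraries. Sites open only in wild type were outside the test, so the numbers higher and lower cannot be weighed against each other. By limma with Benjamini-Hochberg adjustment, the change was higher in the knockout at 52 regions (0.0924%) and lower at 5 (0.00889%). At an unadjusted p under 0.05 the counts were 2058 and 1094. The counts moved with single libraries, to 288 higher without KO 0 h library 1, 111 without KO 0 h library 4 and 99 without KO 72 h library 1, and to 31 lower without KO 0 h library 3. With a pseudocount of 1 they were 16 and 3. Of the 52, 50 had no KO 0 h peak, where a height of 0 stands for a peak under the caller's threshold.

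The largest interaction estimates do not all describe the same site in both genotypes. Next to Dusp2, a phosphatase gene induced by the T cell receptor, the region measured 2.71, 2.38, 2.604 and 2.48 at KO 72 h and 0, 0 and 0 at KO 0 h, against 3.04, 3.23, 3.29 and 3.11 at WT 72 h and 6.43, 7.14, 3.44 and 8.87 at WT 0 h (interaction 3.46 ± 0.29 SE, limma adjusted p = 1.47e-04). With only peaks whose summit lay inside the region, which was tried after the data were seen, the estimate was 1.19 and its limma adjusted p 0.80, since the tall WT 0 h peaks reached in from outside. At Tomm20 the same step gave 0.70 in place of 3.23. In 7 of the 52 regions a WT 0 h peak had its summit outside, and 45 of the 52 were called again. Zfp292, a zinc finger gene, kept its estimate. It measured 1.56, 1.49, 1.84 and 1.73 at KO 72 h and 0, 0 and 0 at KO 0 h, against 2.11, 1.63, 2.14 and 1.32 at WT 72 h and 2.41, 3.72, 4.41 and 3.404 at WT 0 h (interaction 2.89 ± 0.25, limma adjusted p = 1.47e-04). In Trio, a guanine nucleotide exchange factor gene, height was 1.11, 1.78, 1.62 and 1.92 at KO 72 h and 6.67, 3.29 and 7.55 at KO 0 h, against no peak at WT 72 h and 6.34, 6.38, 8.21 and 7.32 at WT 0 h (interaction 2.38 ± 0.30).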

How the data were processed

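The submitters' processing notes name Trim Galore 0.5.0, Bowtie2 2.2.9, MACS2, HOMER 4.10.4 and the mm10 build. Per the file headers, MACS2 2.1.1.20160309 was run on paired reads with no control sample, with 1 fragment kept at a position and a q cutoff of 0.05. The deposited pileup is the fragment coverage signal at each peak's summit, and the −log10 q values are the authors', used only to filter or rank peaks within a list.

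Heights (pileup per M fragments of the header) were analysed with limma 3.58.1 in R 4.3.3 (trend and robust) after adding 0.5. The fit was tested on simulated data. Library measures used two-sided exact permutation over 35 arrangements. Genes came from RefSeq GRCm38.p6 (21896 protein-coding genes, without strand), promoters from its table for 17491 genes. Genome sequence was not used here. Regions were named by size of change. These were the 6 largest each way among regions whose groups did not overlap. To them came the 5 largest each way with a peak in all 7 libraries and the 6 within 1 kb of a boundary. The 5 largest interactions each way were named too, and up to 4 genes per list by changed regions. The members and lists were chosen with earlier results of these data known. Some genes that met these rules are not reported here.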

Additional observations from a re-analysis of the deposited data

Results flagged for a closer look

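Among 38 groups of 4 KO 72 h libraries that were checked, 5 held a library far from the other 3. The groups share the same 4 libraries, so this number was not set against a rate expected by chance. The number of peaks was 55519 in KO 72 h library 1 and 60859 to 61478 in the other 3. The Krtap28-13 region measured 7.39 per M in KO 72 h library 1, against 9.18 to 9.32 in the other 3. The Klrk1 start measured 3.78 in the same library, against 5.01 to 5.12. Rgs10 had a peak of 0.939 in KO 72 h library 3 and Nfkbia 1.86 in KO 72 h library 2, where the other 3 libraries had none. Each of these 4 regions kept its call without the library concerned.

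Only regions with a peak in at least 3 knockout libraries entered the comparison with wild type. The change on activation differed from the wild-type change at 52 regions (higher in the knockout) and 5 regions (lower), by limma's interaction term. These counts were 16 and 3 with a pseudocount of 1, and ran from 43 to 288 and from 2 to 31 leaving out 1 library. The estimates were 3.46 at Dusp2, 3.23 at Tomm20, 2.89 at Zfp292, 2.71 at Ikzf4 and 2.38 at Trio. Heights at Ikzf4 were low, with 0.890, 1.13, 0.683 and 0.982 per M at KO 72 h and 0 in all KO 0 h libraries. There the WT 72 h libraries had no peak, and the WT 0 h libraries measured 0.892, 1.10, 0 and 1.11. Among regions lower in the knockout, estimates were −1.999 at Rsbn1l, −1.47 at Lipg, −1.32 at Itga4, an integrin gene, and −1.23 near Snd1. The Rsbn1l region had a peak only at KO 0 h (1.91, 0.803 and 2.05 per M) and none in any wild-type library. In Itga4 the KO 72 h libraries had no peak, against 3.28, 1.95 and 3.604 per M at KO 0 h, while WT 72 h libraries measured 1.62, 1.34, 1.68 and 1.24 and WT 0 h libraries 4.46, 4.896, 4.73 and 5.03 (limma adjusted p = 0.0403). The Snd1 region, on chromosome 6 as is Irf5, measured 1.07, 0.928, 0.982 and 1.08 at KO 72 h and 0 in all KO 0 h libraries, against 2.92, 2.903, 4.02 and 2.53 at WT 72 h and 0 in all WT 0 h libraries (limma adjusted p = 0.0355). With only summits inside the region, Dusp2 and Tomm20 were no longer called, and the estimates of the other 7 did not move.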

How the results depend on the processing

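Counts of calls moved with the settings, and the cause was not tested. Gained regions numbered 6637 with a pseudocount of 1, 6484 with equal numbers of peaks and 2475 at a minimum change of 2, where lost regions numbered 1378. The gained share was 82.4% when scaled by common regions and 47.3% with equal numbers of peaks, where 4795 and 4343 regions separated the groups as gained and lost. Leaving out 1 library gave 12667 to 15323 gained, 4263 to 13930 lost, a share of 47.6% to 77.2%, 10993 to 12935 separating gained and 2064 to 4277 separating lost. In regions with a peak in all libraries, gained and lost were 748 with a pseudocount of 0.1 (gained), 280 and 1637 with 1, 916 and 3897 with the lowest listed height in place of 0, 1160 and 816 when scaled, 297 at −log10 q of at least 5 (gained), 324 and 1564 with equal numbers, 997 and 4052 with no minimum change, and 17 and 115 with one of 2. Leave-one-out gave 453 to 738 and 1290 to 7172, and a median of −0.63 to −0.22. Scaled and without KO 0 h library 3, a choice made after seeing the data, they were 1939 and 1229, with 4277 separating lost. With equal numbers of peaks the width difference turned to 69.1 bp (exact permutation p = 0.343). The other differences shrank to 2.12 Mb (p = 0.286, exact), −0.448 per M (p = 0.314, exact) and −0.572 percentage points (p = 0.257, exact), and at −log10 q of at least 5 the width difference was −27.8 bp (p = 0.486, exact). Leave-one-out differences ran from 15826 to 23623 peaks, 5.55 to 10.7 Mb, −76.0 to −40.5 bp, −0.683 to −0.384 per M and −8.13 to −3.88 percentage points; there the exact test cannot go below 0.1 or 0.0667. Regions whose change was higher and lower in the knockout numbered 122 and 23 with a pseudocount of 0.1, 16 and 3 with 1, 24 lower when scaled, 14 lower with summits inside (added after seeing the data), and 43 to 288 and 2 to 31 leaving out 1 library. Same-numbered libraries did not deviate together (correlations −0.07, 0.03 and −0.00 over 21971 regions). With the replicate block 15017 were gained and 5674 lost, and 2 and 0 differed from wild type. Depth limits weak peaks: a site under the threshold counts as 0.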

Other observations

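Regions in gene deserts, more than 100 kb from a protein-coding gene, are described for a few neighbouring genes that were picked after their values were seen, beside 39.5% gained and 11.7% lost over all 3083 such regions. Around Klf6, a zinc finger factor gene, 18 of 27 such regions were gained and 0 lost, and with nearer ones 27 gained and 1 lost of 43 (24 and 8 of 50 without KO 0 h library 3). One (chr13:5710781-5711500) measured 2.18, 3.11, 2.604 and 2.01 per M in the KO 72 h libraries and had no KO 0 h peak (2.56 ± 0.19 SE, limma adjusted p = 5.28e-05). On the side of Gata3, the Th2 master factor, 15 of 37 were gained (40.5%, close to the share over all deserts) and 4 lost. The region 991182 bp from Gata3 measured 2.71, 2.62, 3.16 and 3.27 at KO 72 h with no KO 0 h peak (2.78 ± 0.16), and another at 336524 bp measured 0.623, 1.33, 0.726 and 1.22 at KO 72 h and 5.19, 2.98 and 7.99 at KO 0 h (−1.94 ± 0.34).

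Near Myc, which encodes a transcription factor of cell growth, 13 desert regions were gained and 10 lost of 43 (30.2% and 23.3%; 13 and 15 of 50 without KO 0 h library 3), up to 855959 bp away. Gained and lost sites thus shared a desert: 1 measured 1.91, 1.57, 2.05 and 2.67 at KO 72 h with no KO 0 h peak (2.33 ± 0.19), another had none at KO 72 h, against 2.51, 0.842 and 2.58 at KO 0 h (−2.21 ± 0.30). Satb1, a chromatin organiser of T cells, had 6 gained and 9 lost of 27 there, and at any distance 6 gained and 20 lost of 49 (4 and 29 of 60 without that library). The desert beside Btg1 had 5 gained and 10 lost of 25, and that beside Trib2 3 gained and 8 lost of 22. A Trib2 region open throughout measured 0.935, 1.33, 1.07 and 1.31 at KO 72 h and 10.6, 5.24 and 10.03 at KO 0 h (−2.41 ± 0.27, limma adjusted p = 1.97e-04).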
